A study of Mus musculus with 21 samples.

Results

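Zbtb1 is a transcription factor of the BTB zinc finger family that is needed for lymphocyte development, and Cbfa2t3 is a corepressor of the ETO family that works in complexes with Lmo2. A promoter, the stretch of DNA around the start of a gene, is where RNA polymerase and many regulators assemble. Promoters of widely used genes are usually rich in G and C and in CpG dinucleotides, and hold boxes for Sp, ETS, NRF1 or NFY factors. Here the promoter sites of Zbtb1 that overlapped no site of Cbfa2t3 were described by their position, their DNA sequence and the RNA of their genes.

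The cells were a mouse lymphoid progenitor (LP) line made from Ebf1-deficient C57BL6/J cells, grown on OP9 stroma with SCF, IL-7 and Flt3L. ChIP-seq, which sequences DNA bound by a protein, was done on these cells without Notch stimulation, with 2 replicates each for Zbtb1, Cbfa2t3 and input. For RNA, cells that carried Cas9 received sgRNAs against luciferase (sgCont), Lmo2 (sgLmo2), Zbtb1 (sgZbtb1), Cbfa2t2 (sgCbfa2t2) or Cbfa2t3 (sgCbfa2t3) by retrovirus. They were sorted for the sgRNA marker 5 days later, and 3 QuantSeq libraries were made per sgRNA. All 15 libraries therefore shared the Ebf1 deficiency, Cas9 and a sgRNA vector. All came from 1 cell line, with a pool of sgRNAs per gene. The study describes the 3 libraries of a group as biologically independent, and p-values measure the spread between them. In such bulk samples fewer cells of a type and less RNA per cell cannot be told apart.

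The authors deposited 1 peak list per factor, merged from both replicates, with a HOMER peak score (reads in the peak, normalized by HOMER) of at least 15. The Zbtb1 list held 5898 peaks and the Cbfa2t3 list 6077. Of the Zbtb1 peaks, 1756 carried the promoter annotation of HOMER, and 1523 of these (86.7%) shared no base with a Cbfa2t3 peak. These 1523 Zbtb1-alone promoter peaks, 25.8% of the Zbtb1 list, are the regions described here. They were defined by measured values, namely the 2 peak lists, so their scores and their lack of a Cbfa2t3 peak are given as description with no test. The rule would also have left out simple repeats and low-complexity DNA, but it removed no promoter peak. They were compared with the 233 promoter peaks that overlapped a Cbfa2t3 peak, with 518 promoter peaks of Cbfa2t3 alone and with 2453 Zbtb1-alone peaks outside promoters.

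The score of the Zbtb1-alone promoter peaks ran from 15 to 2328, with a median of 31.5 and quartiles of 20.8 and 58.1, and 162 peaks scored at least 100. At the lower edge stood the promoters of Kansl1 and Zswim6, both with a score of 15. The nearest Cbfa2t3 peak without overlap was 4 bases away at Myo9b, 20 at Cltc and 24 at Pgls. Just beyond that edge, Zbtb1 peaks at Tmem123, Ehd1 and Ywhaq overlapped a Cbfa2t3 peak by 8, 10 and 11 bases. Only 24 of the 1523 had a Cbfa2t3 peak centre within 500 bases.

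The 6 highest scores, from 2059.2 to 2328, belonged to 6 copies of Rn4.5s, a small noncoding RNA gene, on chromosome 6 between 47659237 and 47681250. These copies cannot be told apart by sequence, since every pair shared 100% of its 20-base words. Reads that match several copies may have been counted at any or all of them, so the 6 scores need not be separate signals. Among all other peaks, the highest score was 618.6, at Srcap, which encodes a chromatin remodelling ATPase that deposits the histone variant H2A.Z. It was followed by Supt6 (573.7), a histone chaperone of elongating RNA polymerase II, and Pgp (512.5), a phosphatase of metabolites. In the sgZbtb1 libraries described below, Pgp rose slightly, with overlap of the groups (log2 fold change 0.50 ± 0.15, adjusted p = 0.0441, limma), while Supt6 (0.34 ± 0.12) and Srcap (-0.46 ± 0.48) did not pass the test. Next came Ubald1 (426.6), the centrosome gene Cep152 (410.3), Ccm2 (404.1), 0610010K14Rik (358.5) and the methyl-CpG-binding domain gene Mbd6 (321.8). The promoter of Zbtb1 itself belonged to the group, with a score of 258.6 at chr12:76370296-76370666, and its peak centre lay 215 bases downstream of the start in the 5′ UTR. Cbfa2t2, the paralogue of Cbfa2t3, also had such a promoter peak, with a score of 31.1.

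The DNA of these promoters carried a short word, TGCGG, far more often than promoters without a Zbtb1 peak did. The sequences below are from the 4 highest-scoring distinct members and the 4 genes each whose RNA rose or fell most in the sgZbtb1 libraries. The latter were ranked only among called genes above 10 TPM with no overlap of the groups, as given further on. The word is in 8 of these 12 and is absent from the windows of Rn4.5s, Srcap, Dglucy and 5031439G07Rik. They are read from GRCm38 (mm10), 5′ to 3′ on the strand of the gene (plus strand for Rn4.5s), from the word nearest to the peak centre, or from the centre where there is none. Capitals mark TGCGG or its reverse complement CCGCA. Runs are kept to 80 bases with at most 30 in annotated exons, which is why many are short.
Rn4.5s, chr6:47681025-47681104, plus strand: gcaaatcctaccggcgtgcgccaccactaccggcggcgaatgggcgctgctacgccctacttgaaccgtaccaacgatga
Srcap, chr7:127512063-127512092, plus strand: tggtgctagtggcggtggcggccgagacgg
Supt6, chr11:78245642-78245671, minus strand: ggtggcggcggcTGCGGagggccctTGCGG
Pgp, chr17:24470537-24470566, plus strand: gaagcccgctgcgTGCGGctgagcgccgag
D1Ertd622e, chr1:97661897-97661926, minus strand: cacacctcggcgCCGCAgccccgcgcctcg
Tspan3, chr9:56160961-56160990, minus strand: ggcgcgggggtcTGCGGgaacgcggctcgg
Cltb, chr13:54611295-54611324, minus strand: ggtgacgggaagTGCGGgccgcgggcgcgg
Dglucy, listed as 9030617O03Rik, chr12:100778323-100778402, plus strand: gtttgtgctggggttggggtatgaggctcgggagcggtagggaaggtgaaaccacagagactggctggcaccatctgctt
Calu, chr6:29348155-29348184, plus strand: ctccctgggtgagCCGCAgccacggtatcc
Impdh1, chr6:29212268-29212347, minus strand: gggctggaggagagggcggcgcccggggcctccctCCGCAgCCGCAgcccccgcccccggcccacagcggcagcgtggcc
5031439G07Rik, chr15:84987922-84987951, minus strand: ggtcggcggtggcgacggcggcggcggcga
Hilpda, chr6:29272531-29272560, plus strand: tccccgagaactcTGCGGcgacgctgctga

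A further 4, chosen after their values were seen, show the promoter of Zbtb1 itself and of genes named below for cell survival and for the Runx family.
Zbtb1, chr12:76370509-76370538, plus strand: ggggccggctcagTGCGGTGCGGcaggcgc
Bax, chr7:45466857-45466886, minus strand: cggaggccatgtTGCGGggcacccacgtga
Bcl2, chr1:106714216-106714245, minus strand: ggccctccccagCCGCAgccgtcaccgtgg
Runx1, chr16:92698096-92698175, minus strand: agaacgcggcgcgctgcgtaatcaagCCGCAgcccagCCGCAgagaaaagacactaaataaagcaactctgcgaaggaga

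Counted in windows of 200 bases at the peak centre, on both strands, TGCGG was found in 1252 of the 1523 Zbtb1-alone promoter peaks (82.2%, 95% Wilson interval 80.2 to 84.1). In windows at 5585 starts of protein-coding genes that had no Zbtb1 or Cbfa2t3 peak within 1 kb and a mean above 10 TPM in sgCont, the share was 37.9% (36.7 to 39.2). The difference was 44.3 percentage points (41.9 to 46.5). The intervals cover counting error only, since neighbouring promoters are not replicates. The word was chosen because it ranked first among the 512 words of 5 bases (both strands counted as 1) when those shares were compared on the odd-numbered chromosomes. Set against the windows 5 kb away it ranked 7, and the first was CGCCG. On the other chromosomes, which were not used for the ranking, its share was 82.6% (79.6 to 85.2) in 705 Zbtb1-alone promoter peaks and 38.8% (36.9 to 40.7) in 2542 starts without a peak.

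The difference was also found at matched G and C content. The windows of Zbtb1-alone promoter peaks had a median G and C content of 72.0%, against 63.0% at the expressed starts without a peak. Within the band of 65 to 75% G and C, TGCGG was found in 84.0% (81.0 to 86.6) of 649 Zbtb1-alone promoter peaks and in 47.9% (45.6 to 50.1) of 1883 starts without a peak. The same letters in reverse order, GGCGT, served as a word of equal composition. It was found in 43.1% (40.6 to 45.6) of the Zbtb1-alone promoter peaks and in 39.9% (38.6 to 41.2) of the expressed starts, and within the band in 45.0% (41.2 to 48.8) and 51.3% (49.0 to 53.6).

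TGCGG was shared with the promoters at which Cbfa2t3 was also found, and was less frequent at those of Cbfa2t3 alone. It was found in 76.4% (70.5 to 81.4) of the 233 promoter peaks with both factors, a difference of 5.81 points (0.43 to 11.95) from the Zbtb1-alone promoters. At 517 promoter peaks of Cbfa2t3 alone the share was 38.5% (34.4 to 42.8), close to that of starts with no peak. Zbtb1-alone peaks outside promoters held it in 50.8% (48.9 to 52.8) of 2449 windows, and windows 5 kb to each side of the Zbtb1-alone promoter peaks in 5.75% (4.97 to 6.63).

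**Figure D1:**
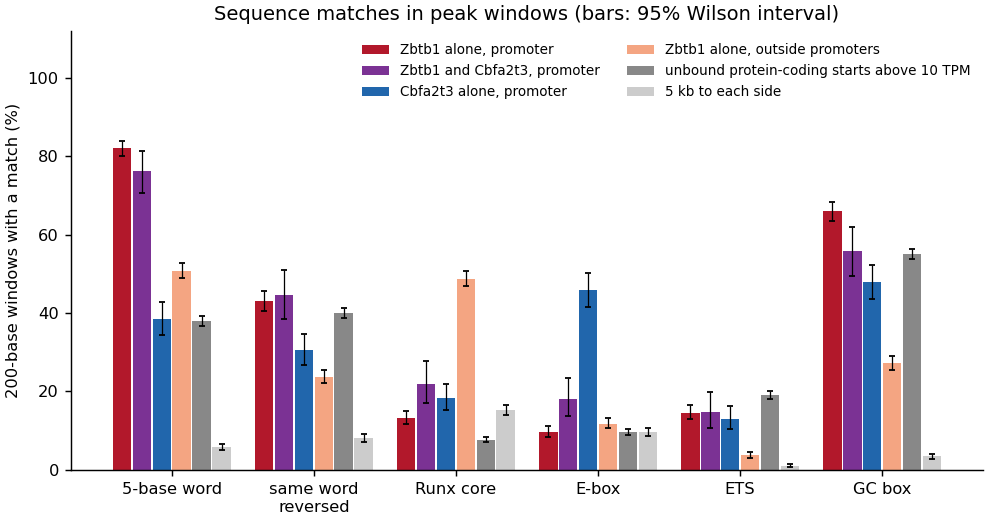
Share of 200-base windows (y axis, percent) that hold a match on either strand, for the 5-base word, the same word reversed and 4 known motifs (x axis), with 1 bar per set of windows and 95% Wilson intervals. The 5-base word stands at 82.2% and 76.4% in the 2 promoter sets with Zbtb1 and at 38.5% and 37.9% in Cbfa2t3-alone promoters and expressed starts without a peak, while the reversed word is at 43.1% and 39.9% in Zbtb1-alone promoters and those starts.

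The word sat at the centre of the peaks. In the 50 bases on each side of the centre, there were 49.4 and 53.7 matches per 100 Zbtb1-alone promoter peaks, against 11.0 and 11.1 in the outermost bins of the 500 bases on either side. The reversed word had 15.3 and 14.4 matches per 100 peaks in the central bins and 9.39 and 10.5 in the outermost. A match within 25 bases of the centre was present in 726 peaks (47.7%), against 11.8% of the 5585 expressed starts, and 13.8% of the peaks had the reversed word that close. At promoters with both factors the central bins held 50.6 and 55.4 matches per 100 peaks, and at Cbfa2t3-alone promoters 15.5 and 14.1.

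**Figure D2:**
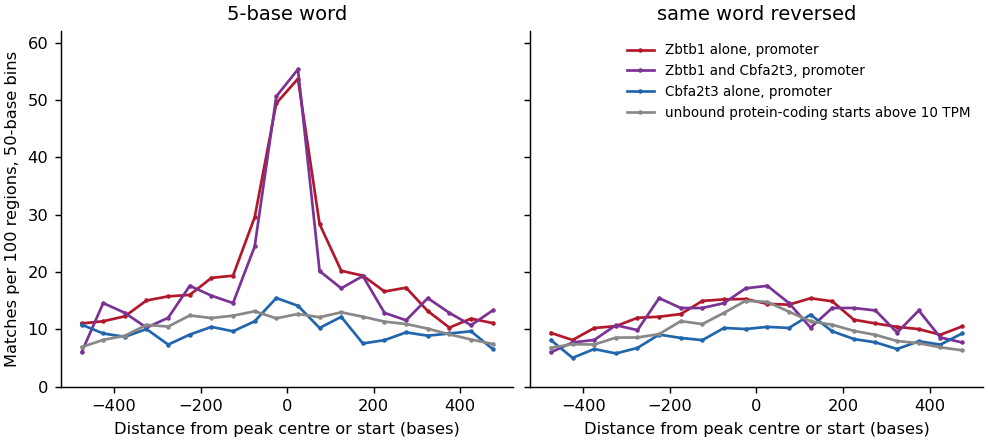
Matches per 100 regions (y axis) in 50-base bins of the distance from the peak centre, or from the start for unbound genes (x axis), for the 5-base word (left) and the same word reversed (right). Both promoter sets with Zbtb1 rise to about 50 matches per 100 peaks at the centre for the 5-base word, and no set does for the reversed word.

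Many peaks held more than 1 copy. The 200-base window had 2 or more matches in 744 peaks (48.9%) and 3 or more in 301, with up to 8 in 1 window. Of 1248 peaks with a match and a gene of known strand, the match nearest to the centre read TGCGG on the strand of the gene in 61.4% (58.6 to 64.0). The longer word TGCGGT was found in 24.5% (22.4 to 26.7) of the Zbtb1-alone promoter peaks and in 5.60% (5.03 to 6.24) of the expressed starts, with its letters rearranged as TGGCGT in 6.76% and 8.34%. The share with TGCGGT was 19.2%, 22.6%, 25.8% and 30.4% from the lowest to the highest quartile of the peak score, and that with TGCGG 80.3%, 81.3%, 82.4% and 84.8%.

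The 271 peaks without TGCGG had a median score of 28.2, against 32.0 for those with it. Among them were the 6 copies of Rn4.5s and Srcap, the highest-scoring single gene. Of these 271, 160 (59.0%) held TGTGG, against 38.1% of the peaks with TGCGG. The word TGTGG is frequent elsewhere too, in 35.6% of expressed starts without a peak and 46.6% of windows 5 kb away, against 41.8% of all Zbtb1-alone promoter peaks.

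In the RefSeq table of promoters, which gives 300 bases per gene (250 before and 50 after the start) on GRCm38 whatever the position of a peak, 1638 entries matched by symbol to a gene with a Zbtb1-alone promoter peak. TGCGG was present in 69.7% of them (67.4 to 71.8), in 47.7% (46.5 to 49.0) of 6434 promoters of genes above 10 TPM with no promoter peak, and in 31.6% (31.1 to 32.1) of all 32851 promoters in the table. For GGCGT these shares were 52.6%, 49.9% and 29.1%.

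Of the motifs searched by name, the GC box and the Runx core TGTGGT differed between promoters and other sites of Zbtb1, in opposite directions. The Runx core was counted only in the form TGTGGT. The word TGCGGT, which has C in place of T and is given above, was counted apart from it. The GC box GGGCGG was found in 66.0% of the Zbtb1-alone promoter peaks and in 27.2% of those outside promoters, a difference of 38.7 points (35.7 to 41.7). The Runx core was found in 13.2% (11.6 to 14.99) of the Zbtb1-alone promoter peaks, in 21.9% (17.1 to 27.6) of the promoter peaks with both factors and in 48.7% (46.8 to 50.7) of the Zbtb1-alone peaks outside promoters, where the difference from the promoters was 35.6 points with an interval of 32.9 to 38.1. The share in Zbtb1-alone promoters was below that of windows 5 kb away (15.3%, 14.1 to 16.6) and above that of expressed starts without a peak (7.59%, 6.93 to 8.32), so its direction depends on the windows it is set against. The difference from the windows 5 kb away was -2.10 points, with an interval of -4.18 to 0.0757 that holds 0. The Zbtb7c-type core TGGTGGT was found in 5.78% of the Zbtb1-alone promoter peaks in 14.8% of the peaks outside promoters and in 2.40% of expressed starts without a peak, so it too was lower or higher by the windows it is set against.

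Among general promoter boxes in these windows, the ETS, CCAAT, NRF1 and TATA words were rarer than at expressed starts without a peak. The GC box was more frequent only before G and C content was matched. Windows of peaks were centred on the peak and those of starts on the start, so their position around the start differs. The RefSeq promoters are placed by the start. There the GC box share was 73.4% for genes of Zbtb1-alone promoters and 64.1% for genes above 10 TPM with no promoter peak. The ETS word was at 18.5% and 22.05%. The GC box share of 66.0% (63.6 to 68.3) stood against 55.1% (53.8 to 56.4) at expressed starts, but within the band of 65 to 75% G and C it was 68.1% (64.4 to 71.6) against 75.7% (73.7 to 77.6). The ETS word CCGGAAG was found in 14.5% (12.8 to 16.4), against 19.1% (18.1 to 20.1), the CCAAT box in 16.3% (14.6 to 18.3), against 30.7% (29.5 to 31.9), the NRF1 core GCATGCGC in 2.69% against 5.12%, and TATAAA in 1.45% against 3.53%. The E-box CAGCTG, a site of E proteins that join Lmo2 complexes, was found in 9.59% (8.21 to 11.2) of the Zbtb1-alone promoter peaks and in 45.8% (41.6 to 50.2) of the Cbfa2t3-alone promoter peaks. A match is a stretch of letters, not a shown binding site.

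More of the peak centres lay downstream of the start than upstream. The median centre was 18 bases downstream, with quartiles of -119.5 and 73 (negative is upstream), and 56.5% (54.0 to 58.9) of the centres were downstream, against 34.8% (28.9 to 41.1) for promoter peaks with both factors and 25.9% (22.3 to 29.8) for Cbfa2t3 alone. The fullest bin of 50 bases, from 50 to 100 bases downstream, held 26.3% of the Zbtb1-alone promoter peaks and 8.30% of the Cbfa2t3-alone ones. The next bin held 3.94%, since the annotation counts most positions beyond 100 bases as another class. By GENCODE vM21, 48.3% (45.8 to 50.8) of the centres lay in a 5′ UTR, 8.80% in a coding exon, 11.9% in an intron and 31.0% outside protein-coding transcripts. For Cbfa2t3-alone promoter peaks the 5′ UTR share was 20.5% (17.2 to 24.1). Starts of protein-coding genes on both strands within 1 kb were found at 15.1% (13.4 to 17.0) of the Zbtb1-alone promoter peaks at 10.7% of promoter peaks with both factors, at 10.0% of Cbfa2t3-alone promoter peaks, at 9.21% of all starts without a peak and at 19.4% (18.4 to 20.5) of the expressed ones. Each such start counts itself, whereas 89.5% of the Zbtb1-alone promoter peaks had any protein-coding start within 1 kb.

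**Figure D3:**
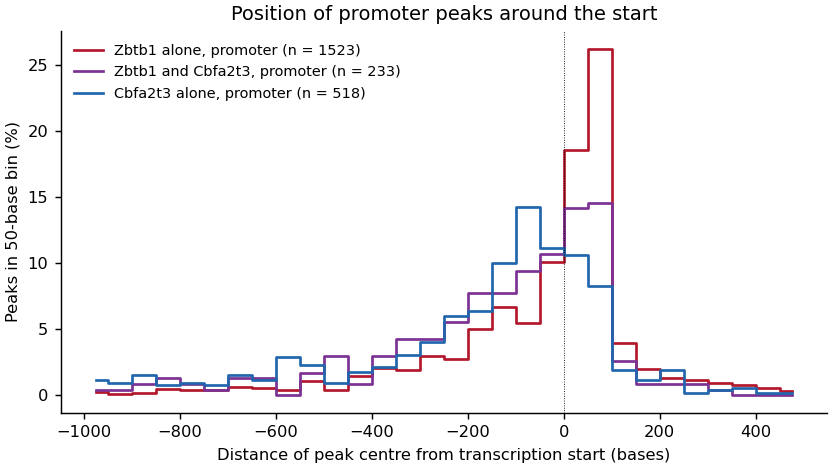
Share of promoter peaks (y axis, percent) in 50-base bins of the signed distance of the peak centre from the transcription start (x axis, bases; positive is downstream), for 3 sets of peaks. Zbtb1-alone promoter peaks are most frequent from 50 to 100 bases downstream of the start (26.3%), where Cbfa2t3-alone promoter peaks are at 8.30%.

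The genes of these promoters were expressed in the LP line. Of the 1523 peaks, 1504 could be matched to 1495 genes in the RNA table. Of these genes, 32 also had a Cbfa2t3-alone promoter peak elsewhere, and 2 also had a promoter peak with both factors. The values are named TPM in the deposited table, but they are CPM, since QuantSeq reads 1 end of each mRNA and gene length is not divided out. In sgCont, 77.4% (75.2 to 79.4) of the 1495 genes had a mean above 10 TPM, against 36.4% (35.7 to 37.0) of all protein-coding genes, and the median was 36.4 TPM. Genes with both factors at the promoter were alike, at 78.9% (73.1 to 83.8) and a median of 43.1 TPM. The reads recovered per library ranged from 1705416 to 2095447, and a floor of 3 reads was therefore worth 1.43 to 1.76 TPM. In sgCont the LP markers Ptprc, Il7r and Flt3 were at 441 to 513, 154 to 175 and 200 to 276 TPM, while the T cell marker Cd3e was at 0. Ebf1 was at 305 to 366 TPM in this line labelled Ebf1-deficient, and reads from the 3′ end do not show whether the allele is functional.

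The target of a sgRNA is checked first. Zbtb1 RNA was 62.7, 66.6 and 55.7 TPM in sgCont and 94.4, 113 and 109 TPM in the libraries labelled sgZbtb1, so it was higher, not lower, under its own sgRNA, with no overlap (log2 fold change 0.77 ± 0.16 SE, adjusted p = 0.00102, limma). Cbfa2t3 RNA was 210, 189 and 172 TPM in sgCont and 340, 344 and 364 TPM in sgCbfa2t3 (0.88 ± 0.11). A cut and its repair need not lower the mRNA, and reads from the 3′ end do not show the edited site, so the RNA does not check the labels. Lmo2 RNA was 23.2, 16.2 and 15.8 TPM in sgCont and 8.48, 24.4 and 15.9 TPM in sgLmo2, with overlap, and Cbfa2t2 RNA was 11.0, 12.2 and 12.3 TPM in sgCont and 25.5, 23.9 and 16.4 TPM in sgCbfa2t2 (0.82 ± 0.33), which did not pass the test. The study reports that the Lmo2, Zbtb1 and Cbfa2t3 proteins were lost under their own sgRNAs by immunoblot, which is not analysed here. Directions below rest on the labels.

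Of the 1495 genes, 1360 passed a filter of a mean above 1 TPM over all libraries, and 135 did not. In the libraries labelled sgZbtb1, 72 of the 1360 differed from sgCont (5.29%, 4.23 to 6.62) at an adjusted p under 0.05 by limma, 35 higher and 37 lower. Of all 11554 genes tested, 1.85% were called higher and 2.94% lower. In all 4.79% were called, which lies within the interval for the genes of Zbtb1-alone promoters. Their median log2 fold change was 0.00, against -0.03 for all genes, and 1149 (84.5%) stayed within 0.5 of 0. When genes had to have an unadjusted p under 0.05, more than 10 TPM on average in sgCont or sgZbtb1, and a log2 fold change beyond 1 in size, 17 of the 1360 were called, 5 higher and 12 lower (1.25%), against a background of 1.66%. The number of calls fell to 34 without sgZbtb1 replicate 3, to 40 without sgCont replicate 3 and to 47 without sgCont replicate 2, with 2.64%, 2.88% and 3.04% of all genes called. With edgeR and TMM scaling 80 were called (5.88%, against 4.92% of all genes), 49 higher and 31 lower, and whether all genes shift likewise was not tested. With all genes above 0 in the fit, 3.04% were called against 1.77% of all genes, a wider gap than in the other fits. That fit also takes in genes with a mean of 1 TPM or less, and its shares were not matched for level.

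Called genes were most frequent above 200 TPM, both with and without such a peak. Above 200 TPM, 22 of 140 genes with a Zbtb1-alone promoter peak (15.7%, 10.6 to 22.6) and 113 of 724 other genes (15.6%, 13.1 to 18.4) were called. Between 10 and 50 TPM the shares were 2.55% (1.53 to 4.23) and 3.71% (3.15 to 4.35), and between 1 and 10 TPM they were 3.70% (1.89 to 7.14) and 2.01% (1.58 to 2.56). From the lowest to the highest quartile of the peak score, 12 of 343, 22 of 338, 16 of 340 and 22 of 339 genes were called, against 4.79% of all genes, with no steady rise. Of these, 2, 9, 9 and 15 were higher.

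**Figure D4:**
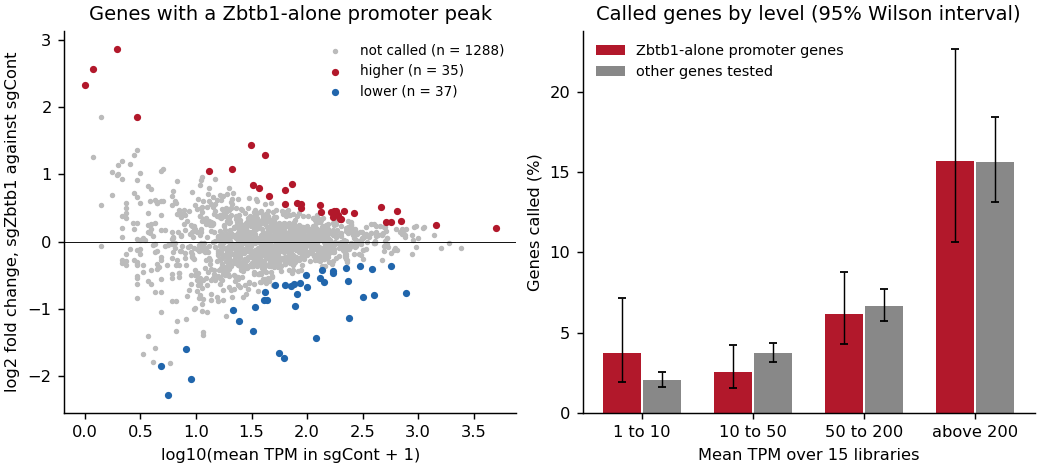
Left: log2 fold change on the log2(TPM + 1) scale in sgZbtb1 against sgCont (y axis) by mean level in sgCont (x axis, log10 scale) for 1360 genes with a Zbtb1-alone promoter peak, with the 35 genes called higher and 37 called lower coloured. Right: share of genes called (y axis, percent, with 95% Wilson intervals) by mean TPM (x axis) for these genes and all other genes tested, which are at 15.7% and 15.6% above 200 TPM.

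Genes of cell survival stood on both sides. Bcl2, which protects cells from apoptosis, was 706, 832 and 797 TPM in sgCont and 467, 423 and 475 TPM in sgZbtb1. The groups did not overlap, and Bcl2 fell (log2 fold change -0.77 ± 0.09, adjusted p = 8.97e-10, limma). Bax, which permeabilizes mitochondria in apoptosis and is a target of p53, was 58.1, 79.9 and 76.8 TPM in sgCont and 126, 147 and 115 TPM in sgZbtb1. It rose, again with no overlap (0.85 ± 0.16, adjusted p = 1.29e-04). Both peaks were near the start, 66 bases downstream with a score of 136.3 for Bcl2 and 20 bases downstream with a score of 32.0 for Bax. Of the 35 tested genes of a p53 and survival list, 5 had a Zbtb1-alone promoter peak (14.3%, 6.26 to 29.4, against 11.8% of all genes), and 2 of the 5 were called, against 4.79% of all genes. The others, Mcl1 (0.26 ± 0.11), Xpc (0.11 ± 0.12) and Casp9 (-0.65 ± 0.31), did not pass the test.

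Runx genes with such a promoter peak fell. Runx1, a transcription factor of blood stem cells and T-lineage commitment, was 334, 324 and 303 TPM in sgCont and 178, 186 and 175 TPM in sgZbtb1 (log2 fold change -0.83 ± 0.10, adjusted p = 3.28e-09, limma). Its peak, with a score of 81.8, lay at -795 bases from the annotated start, which is upstream of it and in an intron by GENCODE. Runx2 was 28.5, 37.6 and 55.1 TPM in sgCont and 20.1, 24.4 and 24.1 TPM in sgZbtb1 (-0.75 ± 0.22, adjusted p = 0.0283). All 3 libraries were lower than all 3 of sgCont for both genes. The other T-lineage and progenitor factors with a Zbtb1-alone promoter peak, Satb1, Myb and Ikzf1, had scores of 119.5, 19.3 and 108.9 and log2 fold changes of -0.19 ± 0.08, 0.21 ± 0.09 and -0.03 ± 0.09, which did not pass the test. With Runx1 and Runx2 these were 5 of 44 tested genes of that list (11.4%, against 11.8% of all genes), of which 2 were called, against 4.79% of all genes. Over the whole list of 44, 9 were called lower and 1 higher, so most of the called factors had no such peak.

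Genes for the Lmo2 complex and corepressors had a Zbtb1-alone promoter peak in 9 of 33 cases (27.3%, 15.1 to 44.2), against 11.8% of all genes tested. The chromatin, splicing and repair lists, given below, also had shares above 11.8%. Of these 9 genes, 1 was called lower and 1 higher, against 4.79% of all genes. The higher was Zbtb1, the target of the sgRNA. Lmo4, a LIM-only paralogue of Lmo2, was 179, 238 and 286 TPM in sgCont and 122, 168 and 173 TPM in sgZbtb1, and fell (-0.59 ± 0.13, adjusted p = 0.00285, limma). Zbtb1 rose, as given above. Ncor1, the scaffold of a nuclear receptor corepressor complex, Rcor1 and the histone demethylase Kdm1a, which work together in the CoREST complex, and Mta2 of the NuRD complex had log2 fold changes from -0.13 to -0.01 and did not pass the test. Cbfa2t2 was 11.0, 12.2 and 12.3 TPM in sgCont and 16.8, 6.69 and 10.3 TPM in sgZbtb1, with overlap of the groups.

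On the list of Notch signalling and cytokine receptor genes, 4 of 31 had such a peak (12.9%, against 11.8% of all genes), and none of them is a cytokine receptor. None was called, as 4 genes need not hold a call at the background of 4.79%, with Notch1 at -0.30 ± 0.14, Notch2 at -0.45 ± 0.21, the Notch-cleaving protease Adam17 at 0.09 ± 0.16 and the cytokine signalling inhibitor Socs2 at -0.09 ± 0.07. The peak of Notch1 lay 323 bases downstream of the start with a score of 37.7. Over the whole list of 31, 5 genes were called lower, none of them with a Zbtb1-alone promoter peak.

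Of 42 tested genes of the amino acid response, 5 had a Zbtb1-alone promoter peak (11.9%, against 11.8% of all genes), and 1 of the 5 was called, against 4.79% of all genes. Of these 5, 4 load amino acids onto tRNA. Gars, the glycine enzyme, was 189, 149 and 205 TPM in sgCont and 258, 206 and 278 TPM in sgZbtb1 and rose (0.45 ± 0.11, adjusted p = 0.0092, limma). Tars (0.33 ± 0.10), Eprs (0.14 ± 0.09), Mars (0.17 ± 0.14) and the serine synthesis gene Psat1 (0.37 ± 0.13) did not pass the test, and the median of these 5 was 0.33, against 0.11 over the whole list and -0.03 over all genes. Cytosolic ribosomal proteins had such a peak in 3 of 83 cases (3.61%, 1.24 to 10.1), namely Rpl37, Rplp2 and Rplp0, and mitochondrial ribosomal proteins in 7 of 74. None of these 10 was called, which is near the background of 4.79%. Rpl36al, a ribosomal protein gene that is not on the list, was called higher and is described below.

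Of the remaining lists, few members were called, which is near the background, since at 4.79% of all genes called a list of 10 members need hold none. Of 50 chromatin genes, 10 had a Zbtb1-alone promoter peak (20.0%, 11.2 to 33.0, against 11.8% of all genes), among them Ctcf, Setd2 and Crebbp. None of these was called, with a median log2 fold change of -0.19. Of 48 splicing factors, 10 had one (20.8%, 11.7 to 34.3), among them Hnrnpu, Srsf2, Hnrnpk and Srsf6, and none was called, with a median of 0.08. Of 55 genes of DNA damage tolerance and repair, 10 had one (18.2%, 10.2 to 30.3), among them Topbp1 and Mre11a, and none was called. Zinc finger genes of the Zfp and Zbtb names had one in 25 of 279 cases (8.96%, 6.14 to 12.9), and Zbtb1 and Zfp706 rose (0.77 and 0.33).

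Below 10 TPM in both sgCont and sgZbtb1, Ccdc122, Dapk1 and Klhl23 were called and rose more than Tspan3. Among called genes above 10 TPM in either group with no overlap, those that rose most were D1Ertd622e, Tspan3, Cltb, Dglucy, Slc50a1, Bax, Luzp1 and Rpl36al. D1Ertd622e was 0, 2.31 and 0.586 TPM in sgCont, at or near the floor, and 15.6, 14.8 and 6.87 TPM in sgZbtb1 (2.87 ± 0.61 on the log2(TPM + 1) scale, adjusted p = 0.0011, limma). Tspan3, a tetraspanin, was 26.7, 27.8 and 35.8 TPM in sgCont and 93.9, 87.5 and 67.8 TPM in sgZbtb1 (1.43 ± 0.20). Cltb, a clathrin light chain, was 31.4, 44.6 and 46.9 TPM in sgCont and 80.4, 101 and 125 TPM in sgZbtb1 (1.29 ± 0.18). These 8 genes were chosen for a lack of overlap between the groups, which 22.9% of all genes tested and 25.6% of those with a Zbtb1-alone promoter peak had. Slc50a1, a sugar transporter, was at 6.97, 11.0 and 18.2 TPM in sgCont and 29.6, 22.0 and 22.1 TPM in sgZbtb1. Slc50a1 did not pass in 5 alternatives, and Dglucy and Luzp1 did not pass in 3 each. Rpl36al has a close copy in Rpl36a, and its reads may be split with it.

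Among called genes above 10 TPM in sgCont or sgZbtb1 with no overlap, those that fell most were Calu, Impdh1, 5031439G07Rik, Hilpda, Jup, Gria2, Zcchc24 and Dgke. Below 10 TPM, Tle1, Hectd2 and Syndig1l fell more than Calu. The peaks of Impdh1, Hilpda and Calu lie close together on chromosome 6, between 29212059 and 29348337. Whether these neighbours fell through a single change at this locus was not tested. Zcchc24 did not pass with DESeq2 (adjusted p = 0.0683), with edgeR (0.0576), with all genes above 0 in the fit (0.0866) or in 5 of 6 fits without a library, and Dgke did not pass in 5 alternatives. Calu, a calcium-binding protein of the secretory pathway, was 63.3, 63.1 and 58.0 TPM in sgCont and 22.3, 19.1 and 13.3 TPM in sgZbtb1 (-1.73 ± 0.19, adjusted p = 9.25e-10, limma). Impdh1, an enzyme of guanine nucleotide synthesis, was 68.5, 43.4 and 53.9 TPM in sgCont and 15.6, 16.3 and 17.7 TPM in sgZbtb1 (-1.66 ± 0.20). 5031439G07Rik was 113, 123 and 120 TPM in sgCont and 42.5, 38.7 and 49.1 TPM in sgZbtb1 (-1.43 ± 0.14). Hilpda, a lipid droplet protein, was 36, 25.5 and 32.8 TPM in sgCont and 24.0, 9.56 and 6.87 TPM in sgZbtb1, so that 1 library was close to the lowest of sgCont. In sgCbfa2t3, Calu was 76.7, 60.5 and 43.8 TPM and Impdh1 45.6, 52.0 and 48.2 TPM, which overlapped sgCont in both cases.

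**Figure D5:**
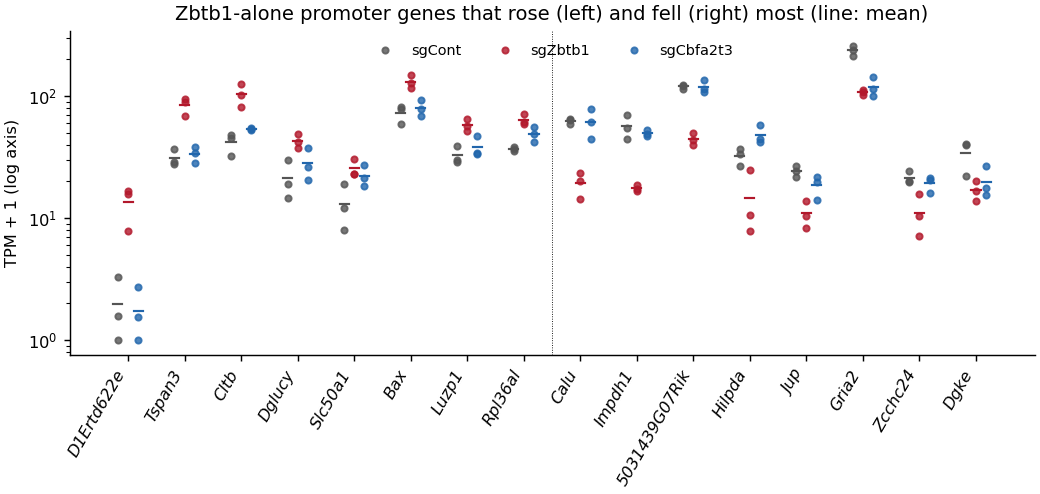
TPM + 1 (y axis, log scale) of the 8 genes with a Zbtb1-alone promoter peak that rose most (left of the dotted line) and the 8 that fell most (right) in sgZbtb1 against sgCont, with 1 point per library, 3 per group, and a line at the mean. Only called genes with a mean above 10 TPM in sgCont or sgZbtb1 and no overlap of these groups were ranked. Points of sgCbfa2t3 are shown beside them, and Calu is at 13.3 to 22.3 TPM in sgZbtb1 and at 43.8 TPM or more in the other 2 groups.

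The other sgRNAs moved few of these genes. Their comparisons share the 3 sgCont libraries with the one above, so they are given side by side only. In sgCbfa2t3, 7 of 1360 were called, all lower (0.515%, against 0.537% of all genes), among them Gria2 (-1.0 ± 0.13), Prkch (-0.82) and Ptpn1 (-0.42). In sgCbfa2t2, Gria2 (-0.62), Ncam2 (-0.68) and Mycbp2 (-0.53) were called lower, which is 0.221% against 0.147%. In sgLmo2 none was called by limma, with 77 (5.66%) at an unadjusted p under 0.05, against 0.0173% of all genes called and 5.65% at that unadjusted p. Gria2, a glutamate receptor subunit, was 211, 238 and 256 TPM in sgCont and 107, 111 and 101 TPM in sgZbtb1 (-1.13 ± 0.13).

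Set directly against sgCbfa2t3, the libraries labelled sgZbtb1 differed in 20 of the 1360 genes (1.47%), 9 higher and 11 lower, against 1.13% of all genes, 0.303% higher and 0.822% lower. Of the 72 genes called against sgCont, 17 were called here with the same sign, in comparisons that share the sgZbtb1 libraries. Lmo4 (-0.95 ± 0.13), Bcl2 (-0.47 ± 0.09), Runx1 (-0.66 ± 0.10), Calu, Impdh1 and Hilpda were lower in sgZbtb1 by limma, and Bax (0.71 ± 0.16), Tspan3 and Cltb were higher.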

How the data were processed

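Peak scores, focus ratios (a fraction of the reads of a peak) and distances to the nearest start were used as the authors deposited them. Per the labels and the methods, ChIP reads were mapped to mm10 with Bowtie 1.1.1, and peaks were called with HOMER against input and merged over the replicates by an IDR procedure. The deposited RNA values are CPM, called TPM by the authors, from reads trimmed with fastp and mapped with STAR. Dividing by the value of 1 read gave whole reads within 0.05 for at least 99.998% of values per library. A row without an identifier, 1 read in each library, was left out, as were the authors' own means, SDs, p-values and fold changes.

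The 1523 peaks, the motifs, the gene lists and the tests were chosen with earlier results of these data known. Overlap was at least 1 base. Windows were read from GRCm38.p6 and genes placed with GENCODE vM21. Motifs of a list of 20 and all words of 5, 6 and 8 bases were searched on both strands. The words of 5 and 6 bases, the expressed starts and the band of G and C content were added after the data were seen. Genes with a mean above 1 TPM were fitted with limma 3.58.1 (R 4.3.3; lmFit, eBayes with a trend) on log2(TPM + 1), all 15 libraries in 1 fit, two-sided, with Benjamini-Hochberg adjustment over 11554 genes. All fold changes refer to log2(TPM + 1), so those of low genes are understated. The steps were tested on simulated data. Named genes were the 8 peaks with the highest score, up to 8 genes that rose and 8 that fell most (adjusted p under 0.05, a mean above 10 TPM, no overlap), and, from 11 lists, the called members and the 4 most abundant others, with peaks at the edges of the rule. Gene symbols matched 1369 peaks by Ensembl ID, 134 by symbol and 1 by accession, and 19 were not matched. Alternatives were edgeR 4.0.16, DESeq2 1.42.0, other filters, pseudocounts, scalings and windows, a replicate block and leaving out each library.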

Additional observations from a re-analysis of the deposited data

How the results depend on the processing

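The number of Zbtb1-alone promoter peaks, 1523, was 1499 when Cbfa2t3 centres within 500 bases also kept a peak out, 1567 when only an overlap of 50% of both peaks did, 1523 with repeats kept, and 796 at a score of at least 30. The 72 genes called in sgZbtb1 became 44 with all genes above 0 in the fit (3.04%, against 1.77% of all genes), 40 of 730 among peaks with a score of at least 30 (5.48%, against 4.79% of all genes), and 17 by the rule on unadjusted p and fold change. Leaving out 1 library gave 34 to 62. The other alternatives gave 66 to 80, and 92 with the 6 libraries alone (6.76%, against 5.97% of all genes). Deviations of sgCont and sgZbtb1 libraries with the same number correlated at 0.03 to 0.05 over 8157 genes, so the numbers were not taken to pair the samples, although each of these 6 correlated best with its own number. With the number as a replicate block 96 genes were called (7.06%, against 6.14% of all genes). Of the 16 genes named above as rising or falling most, 10 kept their call in every alternative run and none changed direction. The others, Dglucy, Slc50a1, Luzp1, Jup, Zcchc24 and Dgke, lost it in 25 of their alternatives, 19 of them with a library left out.

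The Runx core, counted as TGTGGT only, was 2.1 points rarer in the peaks than in windows 5 kb away (-2.1) and 8.4 points rarer over whole peak intervals (-8.4). It was 1.7 points more frequent in windows of 100 bases, 3.0 against all starts without a peak, 5.6 against expressed ones and 6.1 within 65 to 75% G and C. The cause was not tested. TGCGG was 76.5 points more frequent than 5 kb away, 63.7 in windows of 100 bases, 80.1 over whole intervals, 78.6 at a score of at least 30, 54.5 against all starts without a peak, 44.3 against expressed ones and 36.1 within the band. Each peak list merges its replicates and holds no read counts, which leaves the error of a single score unknown.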
